A study of Drosophila melanogaster with 12 samples.

Results

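Glia were set against all neurons, both sorted from adult Drosophila melanogaster brains, across every gene that passed a filter on counts. The members are 6 of the 12 RNA sequencing libraries of the series, 3 from cells sorted with a Repo driver (glia) and 3 from cells sorted with an Elav driver (neurons), and 10528 of 16272 gene names, those that reached 10 counts in 3 or more of the 12 libraries. All flies were of the Canton-S strain and 3 days old as adults, and each population came from its own Gal4 line crossed to UAS-Red Stinger, a red fluorescent protein that marks nuclei. Brains were dissected and dissociated, labelled cells were collected by fluorescence-activated sorting, and their RNA was copied into full-length cDNA by SMART-Seq and read as paired ends on an Illumina HiSeq. The other 6 libraries, of single neuron types, entered the filter on counts, the scaling and the estimate of spread, but not the difference tested. Since every glia library carries the Repo driver and every neuron library the Elav driver, cell population and driver line cannot be told apart. The source label reads optic lobe neurons for all libraries, the glia ones included, while the cell type label separates them. Libraries were pooled by 3 per sequencing lane, and which shared a lane is not stated. The labels do not say whether libraries of a population came from separate animals, so p-values measure the spread between libraries.

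Glia supply neurons with fuel, clear transmitter, seal the blood-brain barrier, wrap axons and cell bodies, and remove debris. In flies, blood sugar is mostly trehalose. Surface glia take it up at the barrier, glycolytic glia are known to pass lactate and alanine to neurons, and fatty acids from neurons can be stored in glial lipid droplets. Neurons depend on oxidative phosphorylation, the oxidation of fuel by the respiratory chain of mitochondria, to pay for ion pumping and transmitter release. The series names both populations as controls for single neuron types. Set against each other, they ask which pathways differ between the main cell classes of the brain and which run at a like level in both.

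Library totals were 49893609 to 57631228 counts in glia and 35012892 to 44502669 in neurons. Levels are given as CPM, counts per 1000000 counts of the library total after scaling by trimmed mean of M values (TMM), as mean ± SD over n = 3 libraries unless each library is given. Replicates varied well beyond counting error, with a chi-square per degree of freedom from 46.7 to 314. That is more than reading the same library again would give. It cannot tell libraries of separate animals from separate preparations of the same RNA, since preparation adds spread beyond counting error. Correlations of log2(CPM + 1) across genes, which are not independent replicates, were 0.970 to 0.977 within glia and 0.991 to 0.993 within neurons.

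The leading markers followed the labels. The glial transcription factor repo stood at 3392, 3035 and 3853 CPM in glia and 1.16, 0.467 and 0.910 CPM in neurons, and the astrocyte gene alrm at 6889, 6426 and 6338 CPM in glia and 13.5, 14.05 and 16.2 CPM in neurons. The synaptic vesicle gene nSyb stood at 49.8, 46.2 and 41.3 CPM in glia and 2972, 2927 and 3092 CPM in neurons, and the neuronal RNA-binding protein gene elav at 117, 164 and 133 CPM in glia and 641, 649 and 633 CPM in neurons. None of these groups overlapped, and elav was the least separated of the 4. Of a list of 10 glial genes 9 were called higher in glia. The exception was CG6126, called lower, at 0.0564 ± 0.0625 CPM in glia against 0.633 ± 0.302 in neurons, a call lost without glia replicate 3 (log2 -3.35) or neuron replicate 1 (-3.09). Summed over the list, the neuron libraries held 519 to 835 CPM against 34056 to 43689 in glia, or 1.74% of the glial mean. Over 11 pan-neuronal genes the glia libraries held 607 to 681 CPM against 20968 to 21527, or 3.05% of the neuronal mean. A gene whose level in a population is at or under these shares of its level in the other population was therefore no higher than the other population's summed markers are there. These shares are no upper bound for single genes, as elav shows. The 11 tested photoreceptor genes summed in glia to 327 CPM against 721 in neurons, or 45.3%. Their part in other values was not tested. In glia, markers of astrocyte and ensheathing, cortex and surface glia were all present, so the population is mixed. In bulk samples such as these, fewer cells of a type and less RNA per cell cannot be told apart.

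Differences covered most of the transcriptome. edgeR's quasi-likelihood test called 7236 of the 10528 genes (68.7%) at a Benjamini-Hochberg adjusted p under 0.05, 3252 of them higher in glia (30.9%) and 3984 lower (37.8%). Any list of genes is to be read against these shares. The median difference over all genes was log2 -0.17, glia minus neurons. Differences of 10-fold or more were called for 1194 genes higher in glia and 1727 lower, and of 100-fold or more for 511 and 700. Likeness was tested by itself, since a gene that misses the test of difference is not thereby alike in both populations. No gene passed an equivalence test with a margin of 1.5-fold (0.0%), although 868 genes had an unadjusted p under 0.05. With a margin of 2-fold, adopted after that result, 1465 genes passed (13.9%). A gene can pass only if its standard error is small beside the margin, and the median standard error over all genes was log2 0.30. These are called "within 2-fold" here. Of them, 407 were also called different, by a small amount, and 1058 were not. A further 2234 genes passed neither test.

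Sugar use at the entry step differed by far more than glycolysis itself. Trehalose is split into glucose by trehalase, the product of Treh (chromosome 2R, 21074018 to 21088945, BDGP6 assembly), which stood at 8254, 6584 and 8809 CPM in glia and 66.5, 60.5 and 63.3 CPM in neurons. The groups lay far apart (log2 difference 6.96 ± 0.17, edgeR adjusted p = 1.27e-10). All 8 tested enzymes that make or break down trehalose and glycogen were higher in glia, with a median of log2 1.96. Glycogen phosphorylase Glyp stood at 957 ± 266 CPM in glia against 365 ± 23.4 in neurons, phosphoglucomutase Pgm1 at 200.01 ± 32.4 CPM in glia against 46.4 ± 6.998 in neurons, and glycogen synthase Glys differed least, at 103.3 ± 11.8 CPM in glia against 70.01 ± 7.31 in neurons. Glys was within 2-fold as well as called higher, but missed the 2-fold margin without glia replicate 2 or 3 or neuron replicate 1 or 2 (log2 0.54 to 0.65) and was not called with library totals (0.20).

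Of the 13 glycolytic genes 8 were within 2-fold, or 61.5%, against 13.9% of all genes. Standard errors were 0.10 to 0.14 for Ald, PyK and Pgk, below the median of 0.30 over all genes. Shares among genes of like standard error were not compared. Aldolase Ald stood at 1681, 1602 and 1532 CPM in glia and 1904, 1656 and 1622 CPM in neurons. Pyruvate kinase PyK stood at 1124, 1132 and 1059 CPM in glia and 1372, 968 and 1029 CPM in neurons, and phosphoglycerate kinase Pgk at 494, 427 and 450.3 CPM in glia and 471, 337 and 412 CPM in neurons. In each of these genes the 2 groups lay side by side or interleaved, and the fitted differences were log2 -0.11 ± 0.10, -0.02 ± 0.13 and 0.17 ± 0.14. Triosephosphate isomerase Tpi (log2 0.12 ± 0.14) passed the same test, as did Pfk, Pgi and Gapdh2, which were also called higher, and Pglym78, which was called lower. The calls of these small differences depended on the libraries. The call of Pfk was lost without glia replicate 3 (log2 0.29) or neuron replicate 2 (0.34), and that of Gapdh2 without any library but neuron replicate 1 (0.18 to 0.26). Pgi missed the 2-fold margin without glia replicate 2 (0.74) or any neuron library (0.61 to 0.65), and Pglym78 without neuron replicate 2 (-0.59). Hexokinase Hex-A and enolase Eno were somewhat higher in glia, at log2 0.90 ± 0.11 and 0.98 ± 0.13. The exception was lactate dehydrogenase Ldh, listed in the deposited table as ImpL3, the enzyme that joins pyruvate and lactate. Ldh (chromosome 3L, 6259105 to 6262694) stood at 280.1, 621 and 412 CPM in glia and 4.29, 4.80 and 3.12 CPM in neurons. Every glia library was far above every neuron library (log2 difference 6.75 ± 0.69, edgeR adjusted p = 4.84e-06). Over the list 7 genes were called higher and 1 lower, counts that became 4 and 3 when libraries were scaled by their totals alone.

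The pentose phosphate pathway, which branches off glycolysis and makes NADPH and ribose, differed throughout. All 7 genes were higher in glia, with a median of log2 3.34. Glucose-6-phosphate dehydrogenase Zw, the entry enzyme, stood at 5.36, 3.91 and 6.13 CPM in glia and 0, 0.0637 and 0 CPM in neurons. Its neuron libraries held 3 counts in all, so the ratio of 212 has a 95% counting interval from 72.3 to 1030, which covers counting error only. Phosphogluconate dehydrogenase Pgd stood at 49.0 ± 8.43 CPM in glia against 2.02 ± 0.564 in neurons, transaldolase Taldo at 141 ± 14.9 CPM in glia against 13.9 ± 2.73 in neurons, and the transketolase CG8036 at 83.3 ± 5.56 CPM in glia against 3.86 ± 0.661 in neurons.

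Oxidative metabolism went the other way. Of 21 genes of pyruvate dehydrogenase and the citric acid cycle 19 were lower in glia and 1 was higher, with a median of log2 -1.12. Citrate synthase kdn (chromosome X, 6350629 to 6361323), which feeds the cycle, stood at 82.1, 92.0 and 71.998 CPM in glia and 625, 538 and 608 CPM in neurons. The groups did not overlap and the difference was the largest of the list (log2 difference -2.85 ± 0.13, edgeR adjusted p = 7.14e-09). The mitochondrial aconitase gene mAcon1 stood at 175 ± 7.82 CPM in glia against 699 ± 49.97 in neurons, and SdhD, a membrane subunit of succinate dehydrogenase, at 57.6 ± 3.40 CPM in glia against 290.4 ± 8.96 in neurons. Fumarase Fum1 was within 2-fold, at 206 ± 13.1 CPM in glia against 199.6 ± 14.1 in neurons, and the ATP-forming succinyl-CoA synthetase subunit ScsbetaA was the single gene called higher, at 342 ± 36.3 CPM in glia against 261 ± 21.5 in neurons, a call lost with library totals.

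Each nuclear-encoded part of the respiratory chain was lower in glia. All 32 tested subunits of complex I were called lower (median log2 -1.59), as were all 17 of complexes III and IV with cytochrome c (median -1.76) and all 13 of ATP synthase (median -1.63). The beta subunit of ATP synthase, ATPsynbeta, stood at 597, 479 and 514 CPM in glia and 2679.7, 1872 and 2164 CPM in neurons. The iron-sulfur protein of complex III, RFeSP, stood at 138, 119.7 and 131 CPM in glia and 683, 629 and 656 CPM in neurons, and the complex I subunit ND-15 at 45.5, 45.0 and 46.4 CPM in glia and 225, 233 and 234 CPM in neurons. No library of glia reached the lowest neuron library in any of these 3 genes. The 72 genes of mitochondrial ribosomal proteins, which translate the mitochondrial genome, were called lower in 67 cases and higher in none (median log2 -1.46). Genes of mitochondrial protein import were lower in 10 of 11 cases, for example Tom40 at 65.0 ± 11.6 CPM in glia against 221 ± 16.95 in neurons.

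The genes carried by the mitochondrial genome had a median nearer 0. None of the 13 was called by edgeR (0 by DESeq2; 1 had an unadjusted edgeR p under 0.05), and their median was log2 -0.07, over a range from -1.02 to 0.61. Cytochrome c oxidase subunit mt:CoIII stood at 2291, 2706 and 2672 CPM in glia and 2168, 2696 and 3198 CPM in neurons, and cytochrome b, mt:Cyt-b, at 2255, 2516 and 2446 CPM in glia and 1531, 2641 and 3129 CPM in neurons. Both were within 2-fold, and their libraries interleaved. The margin was missed by mt:CoIII without neuron replicate 1 (log2 -0.21), and by mt:Cyt-b when any 1 library was left out (-0.26 to 0.21). The other 11 genes passed neither test. Of the 13, 4 were called lower when libraries were scaled by their totals alone, 2 were lower without neuron replicate 1, and 1 was higher without neuron replicate 3.

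**Figure D1:**
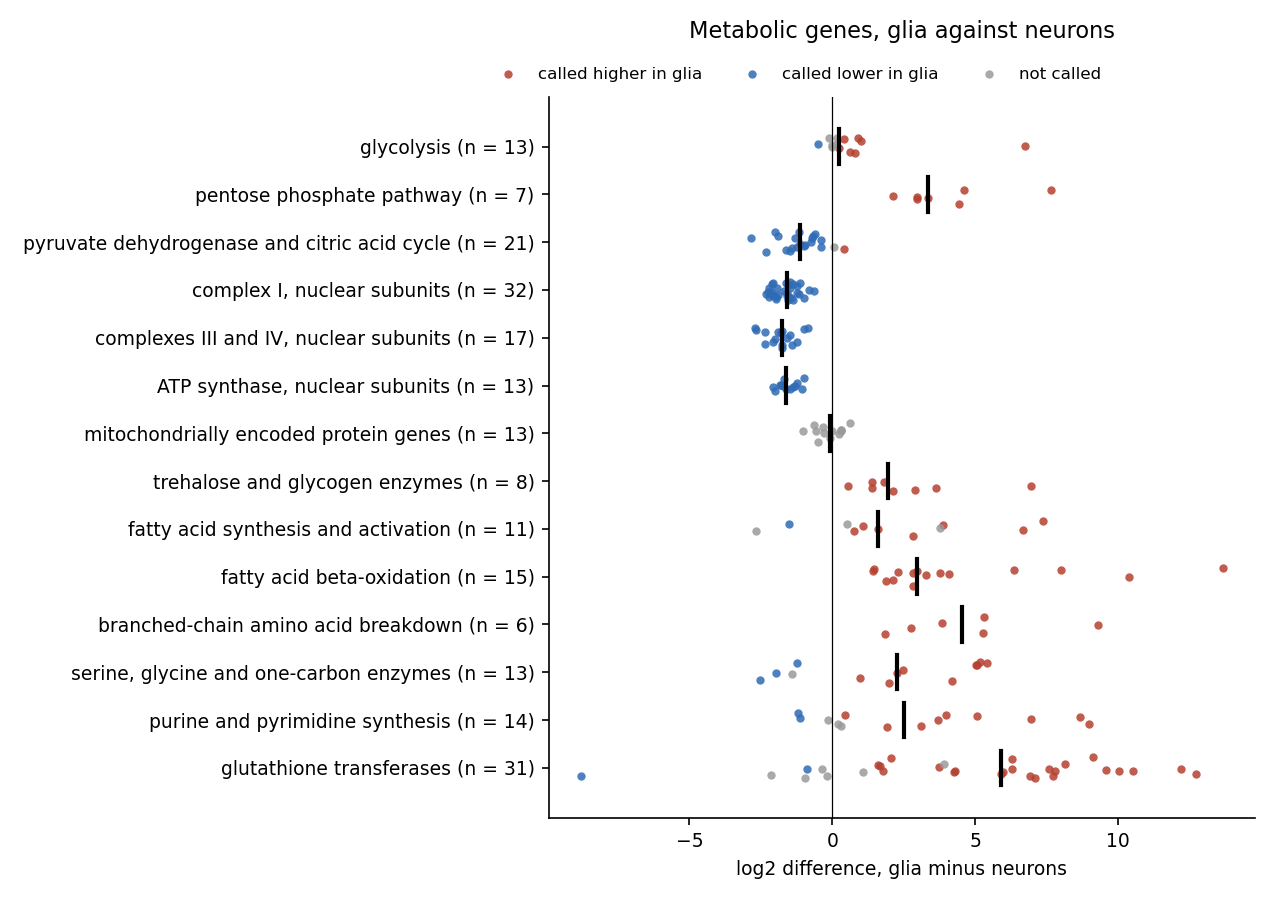
Log2 difference of each tested gene, glia minus neurons, for lists of metabolic genes; each point is a gene, its colour shows the call, and the vertical bar of a list is its median. Glycolysis lies around 0 with Ldh apart, the pentose phosphate, beta-oxidation and branched-chain lists lie to the right, and the nuclear-encoded respiratory lists lie wholly to the left, while mitochondrially encoded genes spread from -1.02 to 0.61 around a median near 0.

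Genes of the shortest merged exon length had the lowest median differences, glia minus neurons. Over all genes with a length, the Spearman rank correlation of exon length and log2 difference was only 0.072. Over 10451 tested genes with an annotated exon length, cut into 10 classes of like size, the shortest class (71 to 704 exon bases) had a median of log2 -1.07, with 16.64% called higher and 43.8% called lower. The second class (705 to 1005 bases) had a median of -0.61 and the third (1006 to 1291) of -0.20, while the other 7 classes lay between -0.08 and 0.08. Genes for respiratory subunits and mitochondrial ribosomal proteins are short. With the median of its own length class taken off each gene, the list medians were log2 -1.07 for complex I, -1.14 for complexes III and IV, -1.01 for ATP synthase and -0.73 for mitochondrial ribosomal proteins. The citric acid cycle, whose genes are longer, kept -1.10, and the genes of cytoplasmic ribosomal proteins, which are as short, went from 1.09 to 1.63. The mitochondrially encoded genes, whose median was near 0 without this step, went from -0.07 to 0.43, with 11 above their class median and 2 below. The proteasome went from 0.02 to 0.37 and the core spliceosome from -0.10 to 0.58. The part of length in the values of single genes was not tested.

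**Figure D2:**
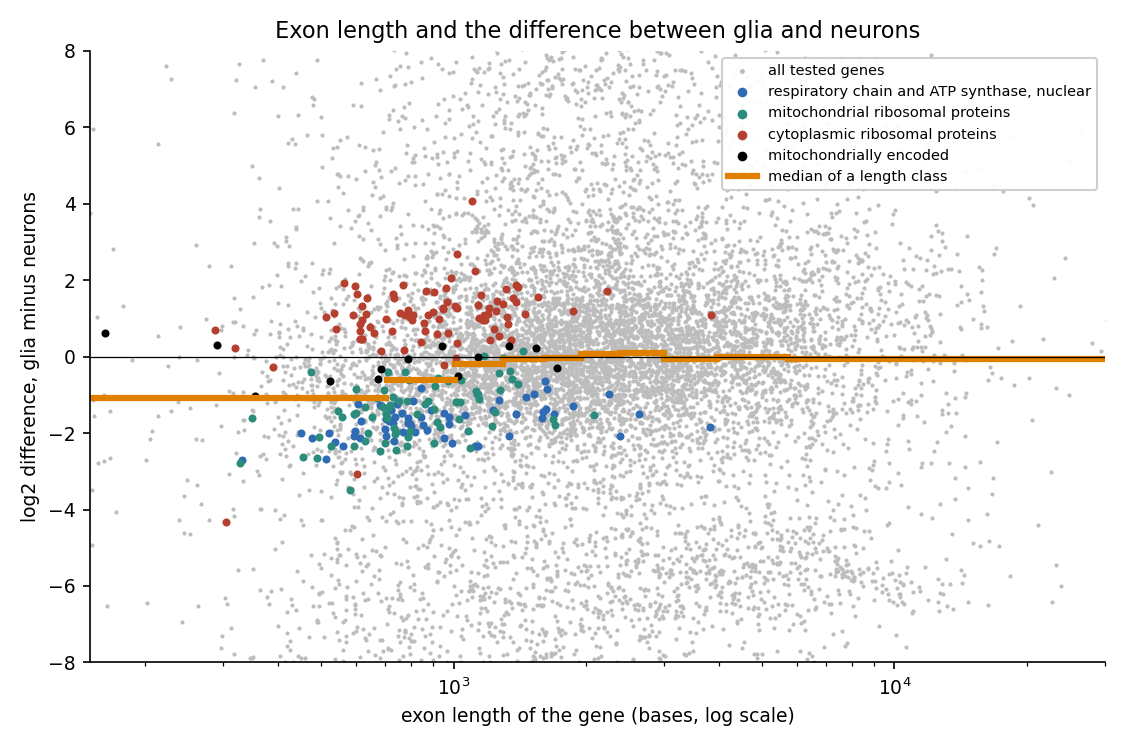
Log2 difference, glia minus neurons, against exon length in bases on a log axis; grey points are all tested genes, larger coloured points are members of named lists, orange bars are the medians of the 10 length classes, and points beyond the axis limits are not drawn. The bar stands at -1.07 for the shortest class, most genes of the respiratory chain lie below the bars, and cytoplasmic ribosomal protein genes of like length lie above it.

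Carriers for sugars and small acids were split between the populations. Tret1-1, the trehalose carrier of the blood-brain barrier, stood at 469, 704 and 651 CPM in glia and 4.79, 15.2 and 12.2 CPM in neurons. The glucose carrier Glut1 (chromosome 3L, 914074 to 993788) stood at 6.45, 5.82 and 3.49 CPM in glia and 519, 597 and 546 CPM in neurons, which is the reverse order, without overlap in either gene. The sugar carrier nebu was higher in glia, at 656 against 162 CPM. Among monocarboxylate carriers, which move lactate and pyruvate, Sln stood at 0, 3.12 and 1.44 CPM in glia and 88.3, 92.8 and 88.0 CPM in neurons. Mct1 averaged 1.96 CPM in neurons and was not seen in glia, so it was lower in glia by at least 87.2-fold. The related carrier hrm was within 2-fold, at 128 ± 39.1 CPM in glia against 122 ± 19.3 in neurons. Of the 12 tested carriers 2 were higher, 6 lower and 4 not called.

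Shuttles that carry the reducing power of NADH into mitochondria differed by type. Both enzymes of the glycerol-3-phosphate shuttle were lower in glia, Gpdh1 at 79.7 ± 6.13 CPM in glia against 495 ± 68.1 in neurons and Gpo1 at 75.8 ± 8.17 CPM in glia against 283 ± 58.01 in neurons. Of the malate-aspartate shuttle, the cytosolic malate dehydrogenase Mdh1 (479 ± 38.3 CPM in glia against 154 ± 17.3 in neurons) and the aspartate aminotransferases Got1 (619 ± 42.02 CPM in glia against 135 ± 7.91 in neurons) and Got2 (352 ± 24.5 CPM in glia against 87.3 ± 4.41 in neurons) were higher. The mitochondrial Mdh2 was called lower and within 2-fold, at 703 ± 30.2 CPM in glia against 925 ± 72.6 in neurons. Adenylate kinase Adk1, which balances the adenine nucleotides, was lower, at 23.8 ± 7.93 CPM in glia against 234 ± 28.5 in neurons.

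Fatty acid breakdown was higher in glia at every step measured. All 15 tested genes of beta-oxidation were called higher, with a median of log2 2.96. The carnitine palmitoyltransferase gene whd, which admits fatty acids to mitochondria, stood at 512, 321 and 412 CPM in glia and 26.5, 37.1 and 28.8 CPM in neurons. The inner-membrane carnitine palmitoyltransferase CPT2, listed as CG2107, stood at 31.6, 35.4 and 33.2 CPM in glia with no count in any neuron library, at least 1410-fold higher. The alpha subunit of the trifunctional protein, Mtpalpha, stood at 188 ± 15.4 CPM in glia against 0.713 ± 0.580 in neurons. The smallest differences of the list were those of the carnitine carrier colt (53.3 against 19.9 CPM) and the dehydrogenase scu (65.9 against 24.3 CPM). These genes are also active in fat body, so its markers are given beside them. Of 7 fat body genes 4 were tested, with summed levels of 34.3 to 53.5 CPM in glia and 3.08 to 3.32 in neurons. Most of the glial sum was apolpp, the apolipophorin precursor, at 39.7 CPM, and the yolk protein genes Yp1, Yp2 and Yp3 lay between 0.446 and 3.19 CPM there. The larval serum protein genes and Fbp1 did not pass the filter on counts. The part of fat body cells in these values was not tested.

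Most genes of fatty acid synthesis and storage were higher in glia too. Of 11 tested genes of fatty acid synthesis and activation 7 were higher, 1 was lower and 3 were not called. Acetyl-CoA carboxylase ACC stood at 343, 337 and 537 CPM in glia and 47.6, 64.3 and 58.9 CPM in neurons, and fatty acid synthase FASN1 at 978, 902 and 847 CPM in glia and 55.3, 71.5 and 59.3 CPM in neurons. Both were higher in all glia libraries, while ATP citrate lyase ATPCL, which supplies the acetyl-CoA, was lower, at 118 ± 15.3 CPM in glia against 337 ± 13.8 in neurons. The perilipin gene Lsd-2, whose protein coats lipid droplets, stood at 395, 251 and 422 CPM in glia and 1.79, 3.37 and 3.71 CPM in neurons. The triglyceride-forming enzyme mdy stood at 33.9 ± 7.14 CPM in glia against 0.156 ± 0.270 in neurons, lipin Lpin at 724 ± 214 CPM in glia against 93.6 ± 2.67 in neurons, and the lipase gene bmm at 92.4 ± 16.3 CPM in glia against 33.5 ± 3.23 in neurons. Of 17 genes for droplets, lipases and lipid carriers, 12 were higher and 2 lower in glia, the latter being 1 without glia replicate 3, neuron replicate 2 or neuron replicate 3.

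The lipid carriers between cells were divided. The lipocalin GLaz, a relative of mammalian apolipoprotein D, stood at 189.7, 115.01 and 162 CPM in glia and 0.395, 0.531 and 0.590 CPM in neurons, while its relative NLaz was within 2-fold, at 57.8 ± 25.8 CPM in glia against 61.4 ± 7.42 in neurons. NLaz missed that margin without glia replicate 2 (log2 -0.52), neuron replicate 2 (-0.09) or neuron replicate 3 (-0.17). The lipophorin receptor LpR1 stood at 4.52, 3.19 and 15.99 CPM in glia and 285, 284 and 247 CPM in neurons, and LRP1, a further lipoprotein receptor, at 185 ± 34.0 CPM in glia against 38.6 ± 0.959 in neurons. GLaz and LRP1 were thus higher in glia and LpR1 in neurons, without overlap. In sphingolipid metabolism the ceramidase gene CDase differed most (315 ± 96.8 CPM in glia against 1.24 ± 1.01 in neurons), whereas the ceramide synthase schlank was within 2-fold (96.6 ± 13.5 CPM in glia against 80.9 ± 8.17 in neurons). Phospholipid enzymes showed no common direction, with 5 of 16 higher and 8 lower. Ethanolamine kinase eas was far lower in glia (2.80 ± 1.62 CPM in glia against 119 ± 13.0 in neurons), and of the enzymes that commit choline to phosphatidylcholine Cct2 was far higher (322 ± 16.96 CPM in glia against 8.19 ± 1.27 in neurons) and Cct1 within 2-fold (298 ± 28.7 CPM in glia against 242 ± 10.7 in neurons). The small rise called for Cct1 was lost without glia replicate 2 (log2 0.22) or neuron replicate 2 or 3 (0.28 each).

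Glutamate metabolism was parted by enzyme. Glutamate dehydrogenase Gdh (chromosome 3R, 23935958 to 23943101), which joins glutamate to the citric acid cycle, stood at 36.6, 52.2 and 37.9 CPM in glia and 819, 672 and 657 CPM in neurons. It was lower in every glia library. Proline dehydrogenase slgA was lower in glia (223 ± 13.0 CPM in glia against 1144 ± 49.7 in neurons), as was P5CDh1, which finishes the conversion of proline to glutamate (259 ± 50.3 CPM in glia against 692 ± 28.7 in neurons). GABA transaminase Gabat was higher (731 ± 150.2 CPM in glia against 400.3 ± 88.9 in neurons), and the next enzyme of GABA breakdown, Ssadh, was called higher within 2-fold (299 ± 66.1 CPM in glia against 221 ± 20.2 in neurons). That call of Ssadh was lost without glia replicate 1 (log2 0.24), neuron replicate 2 (0.37) or neuron replicate 3 (0.43), and the margin without glia replicate 3 (0.48), neuron replicate 1 (0.50) or neuron replicate 3. Over the 13 tested enzymes 5 were higher and 8 lower.

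Other amino acid routes were higher in glia. All 6 tested genes of branched-chain amino acid breakdown were called higher, with a median of log2 4.55. The aminotransferase Bcat, listed as CG1673, stood at 58.8, 52.4 and 73.5 CPM in glia and 0.0263, 0.0637 and 0.197 CPM in neurons, with no overlap (log2 difference 9.29 ± 0.55, edgeR adjusted p = 3.46e-06). Serine synthesis was higher at all 3 steps, with CG6287, the phosphoglycerate dehydrogenase, at 52.0 ± 8.95 CPM in glia against 1.22 ± 0.701 in neurons, CG11899, the phosphoserine aminotransferase, at 27.8 ± 6.89 CPM in glia against 0.843 ± 0.346 in neurons, and the phosphatase aay at 298 ± 78.1 CPM in glia against 8.27 ± 1.05 in neurons. The folate enzyme Nmdmc stood at 83.6 ± 8.63 CPM in glia against 4.55 ± 0.685 in neurons, whereas S-adenosylmethionine synthetase Sam-S was lower, at 113 ± 7.95 CPM in glia against 439.8 ± 23.3 in neurons. Of 13 serine, glycine and one-carbon genes 9 were higher and 3 lower.

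Amino acid carriers followed no single direction, with 10 of 19 higher and 6 lower. The carrier gene CG7888 stood at 4550.2, 3103 and 3844 CPM in glia and 5.37, 10.5 and 5.78 CPM in neurons. The heterodimeric carrier subunits JhI-21 (94.4 against 7.51 CPM), mnd (81.1 against 6.39 CPM) and gb (39.7 against 5.70 CPM) were higher in glia. CG13743 was lower, at 2.79, 7.95 and 0.729 CPM in glia and 217, 331 and 265 CPM in neurons. The glutamate carrier Eaat2, which is listed with the astrocyte markers, was within 2-fold, at 227, 109 and 250.1 CPM in glia and 179, 209 and 199.6 CPM in neurons. Eaat2 missed that margin with library totals (log2 -0.38) and when only the 6 glia and neuron libraries were fitted (0.0026). Eaat1, the main glial glutamate carrier, stood at 7800.5 ± 155 CPM in glia against 488 ± 136 in neurons.

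Detoxification and redox genes made up one of the widest gaps. Of 31 glutathione transferase genes, whose enzymes attach glutathione to foreign and oxidised molecules, 23 were higher and 2 lower in glia, with a median of log2 5.88. Without glia replicate 2, 4 were lower. GstD1 stood at 1642, 2354 and 1595 CPM in glia and 7.87, 10.6 and 8.24 CPM in neurons, and GstE1 at 1969.5, 3118 and 2243 CPM in glia and 1.92, 1.74 and 1.401 CPM in neurons. In neurons GstD5 and GstD10 had no count in any library, so they were at least 756-fold and 518-fold higher in glia. GstZ2 went the other way, at 0, 0 and 0.296 CPM in glia and 44.2, 45.9 and 40.9 CPM in neurons, with no overlap. These genes lie in tandem clusters of similar sequence, and how reads that match several copies were counted is not given in the sources used here.

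The transcription factor gene cnc, the fly relative of Nrf2 that drives antioxidant genes, stood at 1098, 1028 and 1201 CPM in glia and 26.3, 33.6 and 29.0 CPM in neurons. Its partner Keap1, which holds cnc protein in check, was not called, at 21.2 ± 10.4 CPM in glia against 27.1 ± 0.733 in neurons, though it was called lower without glia replicate 2 (log2 -0.80). Glutathione synthesis was higher, with Gclc at 279.7 ± 12.4 CPM in glia against 54.2 ± 1.72 in neurons and Gclm at 125 ± 22.5 CPM in glia against 34.2 ± 7.21 in neurons, as was catalase Cat, at 417 ± 85.5 CPM in glia against 35.3 ± 4.09 in neurons. The mitochondrial antioxidant enzymes Sod2 (67.5 against 147 CPM) and Prx3 (51.9 against 125 CPM) were lower in glia, like the mitochondrial genes above. Lower calls were not confined to mitochondrial enzymes, as Sod1 was called lower and within 2-fold (357 against 557 CPM). Over 15 tested genes of antioxidant enzymes and glutathione synthesis 9 were higher and 4 lower. Of the ferritin genes, whose products store iron, Fer1HCH (987, 1132 and 1008 CPM in glia and 949.9, 889 and 883 CPM in neurons) and Fer2LCH (751 ± 83.02 CPM in glia against 633 ± 67.0 in neurons) were within 2-fold. The groups of Fer1HCH lay close without overlap, and both genes were called higher with median-of-ratios scaling (log2 0.33 and 0.38), with a filter at 100 counts (0.26 and 0.30) and in DESeq2. The third ferritin gene, Fer3HCH, lay far lower and was called higher in glia (0.744 ± 0.162 CPM in glia against 0.0283 ± 0.0490 in neurons), a call lost in DESeq2 (log2 4.82) and without glia replicate 3 (4.38), neuron replicate 1 (4.02) or neuron replicate 3 (4.01), while transferrin Tsf1 stood at 1052 ± 404 CPM in glia against 4.84 ± 3.27 in neurons.

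Purine synthesis and DNA replication genes were higher in glia. The first enzyme of purine synthesis, Prat, stood at 27.6, 63.2 and 33.4 CPM in glia and 0, 0 and 0.246 CPM in neurons. The bifunctional later enzyme Gart stood at 49.9 ± 8.69 CPM in glia against 0.1202 ± 0.0663 in neurons, and of 14 purine and pyrimidine genes 9 were higher and 2 lower. The large subunit of ribonucleotide reductase, RnrL, stood at 55.0, 108 and 64.0 CPM in glia and 1.87, 0.0849 and 1.35 CPM in neurons. The small subunit RnrS and the cyclin-dependent kinase Cdk1 had no count in neurons, with 15.4 and 6.07 CPM in glia, at least 665-fold and 259-fold higher. The replication helicase gene Mcm2 stood at 18.02 ± 12.6 CPM in glia against 0.104 ± 0.161 in neurons, and the sliding clamp gene PCNA at 11.6 ± 4.03 CPM in glia against 0.113 ± 0.196 in neurons. Over 22 replication and cell cycle genes 15 were higher and 2 lower, with a median of log2 4.31. Apart from RnrL, CycD (25.4 CPM) and Mcm2, none of the genes called higher exceeded 17 CPM in glia. The summed level of 5 dividing-cell markers was 74.7 to 139.6 CPM in glia and 0.785 to 1.87 in neurons, most of it RnrL. All 5 were called higher in glia, at log2 5.32 to 11.19, among them the mitotic genes stg and aurB. The mitotic genes CycB and polo did not pass the filter on counts.

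Translation machinery in the cytoplasm ran opposite to that of mitochondria. Besides the ribosomal proteins, of which 72 of 86 were higher, 26 of 41 translation factors were higher and 10 lower, and 16 of 20 cytoplasmic tRNA synthetases were higher and none lower. The 10 lower factors became 6 without library scaling, and 1 synthetase was called lower without glia replicate 2. The aspartyl-tRNA synthetase AspRS stood at 41.5 ± 11.1 CPM in glia against 2.84 ± 0.420 in neurons, and alanyl-tRNA synthetase AlaRS at 126 ± 11.3 CPM in glia against 14.6 ± 1.02 in neurons. The initiation factor eIF6 stood at 80.5, 138 and 100.4 CPM in glia and 9.50, 5.92 and 8.16 CPM in neurons. Some initiation factors went against the list: the cap-binding protein eIF4E1 was lower (205 ± 21.7 CPM in glia against 420.3 ± 34.1 in neurons), and eIF4A (838 ± 117 CPM in glia against 765 ± 2.46 in neurons) and the scaffold eIF4G1 (241 ± 6.60 CPM in glia against 249 ± 33.3 in neurons) were within 2-fold. Thor, which encodes the eIF4E-binding protein, stood at 132, 208 and 179 CPM in glia and 0, 0 and 0.0983 CPM in neurons. All 8 subunits of the cytosolic chaperonin, which folds actin and tubulin, were higher, with a median of log2 2.14, and CCT5 stood at 144 ± 36.5 CPM in glia against 19.6 ± 0.976 in neurons.

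The secretory pathway was higher in glia from entry to exit of the endoplasmic reticulum. Of 19 genes for entry and folding 15 were higher and 2 lower, and of 13 subunits of the COPI and COPII vesicle coats 11 were higher and 1 lower, or 2 lower without glia replicate 1. The chaperone Gp93 stood at 1221, 1181 and 1237 CPM in glia and 40.3, 40.5 and 39.8 CPM in neurons. The BiP relative Hsc70-3 stood at 1326 ± 112 CPM in glia against 159 ± 16.8 in neurons, the COPII subunit Sec24AB at 567 ± 109.7 CPM in glia against 64.3 ± 13.5 in neurons, and the stress sensor PEK at 238 ± 27.3 CPM in glia against 29.2 ± 4.82 in neurons. The stress factor Xbp1 was higher (1130.5 ± 199 CPM in glia against 212 ± 29.4 in neurons), whereas Atf6 was within 2-fold (121 ± 15.3 CPM in glia against 141 ± 12.2 in neurons).

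Acidification and digestion of lysosomal contents were parted. Of 18 subunits of the vacuolar ATPase, the proton pump of lysosomes and synaptic vesicles, 15 were lower in glia and 2 higher (median log2 -1.56). Vha55 stood at 393, 369 and 419.6 CPM in glia and 1467, 1563 and 1578 CPM in neurons, and VhaM9.7-a at 4.15, 6.68 and 3.96 CPM in glia and 446, 489 and 506 CPM in neurons. Of 18 lysosomal enzymes and membrane proteins 11 were higher and none was called lower, although 4 were when libraries were scaled by totals alone. The hexosaminidase Hexo2 stood at 488 ± 84.4 CPM in glia against 23.5 ± 1.01 in neurons, the mannosidase LManII at 187 ± 25.5 CPM in glia against 0.715 ± 0.682 in neurons, and the cathepsin gene CtsL1 was within 2-fold, at 194 ± 37.5 CPM in glia against 192 ± 19.1 in neurons.

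Many genes of protein turnover lay at a like level. Of 31 proteasome subunits 23 were within 2-fold, or 74.2%. As in glycolysis, this share was not compared with genes of like standard error. The median difference was log2 0.02 (0.37 with the median of each length class taken off). The catalytic core subunit Prosbeta5 stood at 97.6, 109 and 94.2 CPM in glia and 127, 125 and 104.2 CPM in neurons, and the regulatory ATPase Rpt1 at 80.2, 88.7 and 92.4 CPM in glia and 102, 77.5 and 96.2 CPM in neurons. Their libraries overlapped. Over the list 6 were called higher and 5 lower, counts that became 12 and 2 with median-of-ratios scaling, 2 and 13 with library totals, 5 and 7 without glia replicate 2, and 7 and 2 without neuron replicate 1. The exception was Rpn2, a scaffold of the regulatory particle, at 276, 289.6 and 231 CPM in glia and 44.6, 66.2 and 49.0 CPM in neurons, called higher by 4.98-fold. In autophagy 10 of 22 genes were within 2-fold, among them the membrane-recruiting gene Atg18a (210.3 ± 16.3 CPM in glia against 218 ± 11.4 in neurons) and the ubiquitin-like protein gene Atg12 (18.6 ± 1.72 CPM in glia against 23.1 ± 2.73 in neurons). The membrane protein Atg9 was higher in glia (118 ± 27.95 CPM in glia against 22.5 ± 4.30 in neurons) and the starting kinase Atg1 lower (102 ± 9.67 CPM in glia against 331 ± 16.9 in neurons). Over the list 8 were higher and 4 lower, which turned to 5 and 9 with library totals.

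**Figure D3:**
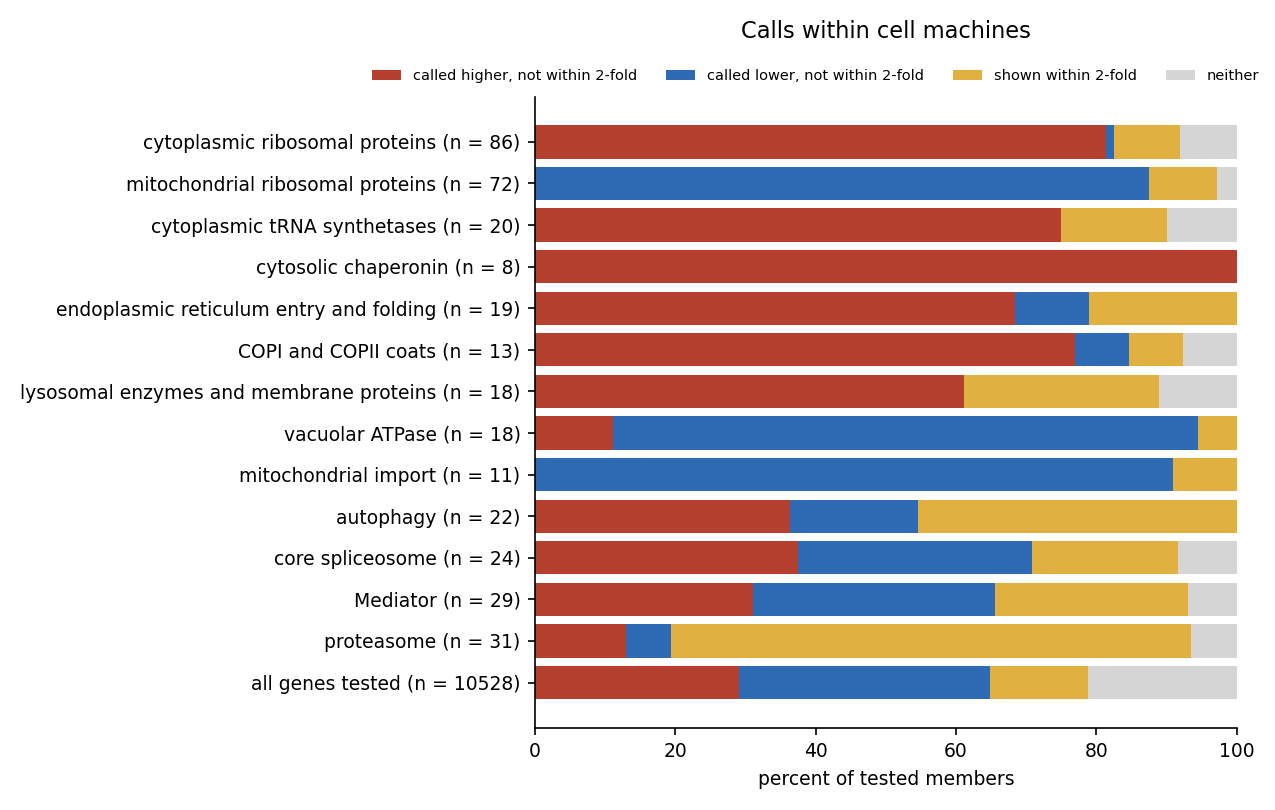
Share of tested genes called higher in glia and not within 2-fold, called lower and not within 2-fold, within 2-fold, or neither, for lists of cell machines and organelles, with all tested genes as the last bar; the axis is percent of the list's tested genes. The proteasome bar is mostly within 2-fold, the cytoplasmic ribosome bar is mostly higher in glia, and the mitochondrial ribosome bar is almost wholly lower.

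In Mediator and the core spliceosome, longer and shorter genes differed in the sign of their median. Of the 29 tested Mediator subunits, which link transcription factors to RNA polymerase II, 9 were higher and 14 lower, which turned to 10 and 8 without library scaling. Among the 15 longer Mediator genes 9 were higher and 3 lower, with a median of log2 1.32. Among the 14 shorter ones none was higher and 11 were lower, with a median of -0.66. The kinase-module gene skd, with 12307 exon bases, stood at 1440.5, 1032 and 1483 CPM in glia and 223, 293 and 254.5 CPM in neurons. MED25, with 2766 bases, stood at 167 ± 43.4 CPM in glia against 21.3 ± 4.05 in neurons, and MED21, with 967 bases, at 16.56, 13.4 and 19.6 CPM in glia and 87.8, 88.8 and 100.3 CPM in neurons. The core spliceosome gave a similar division, with 7 higher and 3 lower of 12 longer genes, such as Prp8 (211 against 55.8 CPM) and Brr2 (126 against 26.7 CPM), and 2 higher and 5 lower of 12 shorter ones, such as snf (15.6 against 49.9 CPM). In the nuclear pore 9 of 12 longer genes were higher and none lower, and 5 of 11 shorter ones were higher and 2 lower, so both parts leaned the same way, with medians of log2 1.38 and 0.34. Of the other lists divided so, the Polycomb, Trithorax and Brahma genes differed in sign (medians 1.62 and -0.26), whereas RNA polymerase II (-0.12 and -1.24) and dynein with dynactin (-0.56 and -0.70) did not. This division was made after the values were seen. Over all genes the length classes under 1006 exon bases had the lowest medians. Genes that short are part of the shorter Mediator, spliceosome and dynein with dynactin genes. They are in both parts of RNA polymerase II (353 to 692 and 759 to 4060 bases). Neither part of the nuclear pore or of the Polycomb, Trithorax and Brahma list holds any. The point of division thus differed from list to list. The part of length in these calls was not tested.

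Where a function is shared by several genes, the leading copy in some cases differed between glia and neurons. Of 33 families with at least 2 tested genes 13 held both a gene called higher and a gene called lower. With 30.9% of all genes called higher and 37.8% lower, families that hold both calls also arise from these shares alone, so the count says nothing particular of such families. Levels of different genes are compared here as CPM per kb of exon, as each gene's percent of its family's sum. Glutamine synthetase was made up of Gs2 to 99.9% ± 0.02 in glia and 18.9% ± 2.1 in neurons, the rest being Gs1. For the sodium pump beta subunit nrv2 held 99.0% ± 0.5 in glia and 2.27% ± 0.42 in neurons, where nrv3 held 97.6% ± 0.4. Translation elongation factor 1 alpha was eEF1alpha1 to 99.5% ± 0.2 in glia and 16.7% ± 3.0 in neurons, where eEF1alpha2 was the larger part. The SDs were small beside these gaps in all 3 families. In neurons Gs2 (71.9 against 11228 CPM in glia) and nrv2 (81.7 against 6466 CPM) lay under the 1.74% share of glial markers given above. Both are themselves on that marker list. In glia nrv3 (63.0 against 4722 CPM in neurons) lay under the 3.05% share of neuronal markers. The part of cells of the other population in these lesser shares was not tested.

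In the vacuolar ATPase, synaptobrevin and cotransporter families a gene called higher likewise stood beside one called lower. The vacuolar ATPase A subunit was Vha68-2 to 60.9% ± 1.6 in glia and 0.107% ± 0.008 in neurons, where Vha68-1 filled nearly all of it. The vesicle fusion protein Syb held 88.7% ± 3.4 of the synaptobrevin sum in glia and 1.45% ± 0.37 in neurons. Snap24 held 55.7% ± 7.1 of the SNAP-25 family in glia and 4.85% ± 0.30 in neurons, where Snap25 held 91.9% ± 0.9. There no gene was called higher, although Snap24 was without glia replicate 1 (log2 0.46), with median-of-ratios scaling and in DESeq2 (0.46 each), and with a filter at 100 counts (0.38). Snap24 was within 2-fold (111 ± 24.6 CPM in glia against 88.5 ± 5.32 in neurons), and Snap25 was far lower in glia (24.5 ± 5.23 CPM in glia against 2070.2 ± 66.3 in neurons). That glial level of Snap25, itself on the list of pan-neuronal genes, lay under the 3.05% neuronal share given above. Among cation-chloride cotransporters, Ncc69, which brings chloride in, held 73.3% ± 8.8 in glia and 0.0295% ± 0.025 in neurons, and kcc, which lets it out, held 25.3% ± 9.6 and 99.8% ± 0.08. The potassium channel genes Irk2 (472 against 0.928 CPM) and Ork1 (272 against 1.57 CPM) were higher in glia, and the sodium-calcium exchanger Nckx30C was lower (38.2 against 3139 CPM). Other families kept the same leading member in both. Act5C held 98.8% ± 0.6 of cytoplasmic actin in glia and 93.2% ± 1.1 in neurons, betaTub56D 94.0% ± 1.7 and 98.5% ± 0.3 of beta tubulin, and the malic enzyme Men-b 70.8% ± 11.9 and 75.7% ± 5.9.

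**Figure D4:**
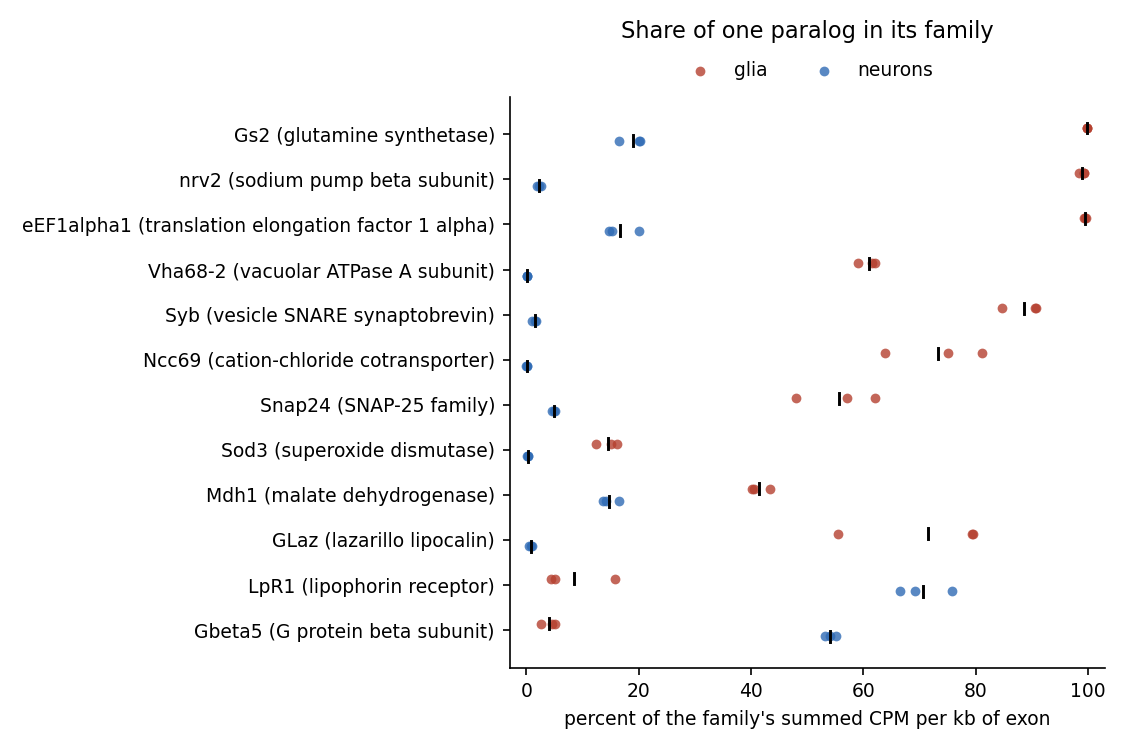
Percent of each family's summed CPM per kb of exon held by the named gene, for glia and neurons, with 1 point per library and a bar at the mean; the axis runs from 0 to 100. In all families drawn the glia and neuron points lie apart, with the named gene taking the larger share in glia except for LpR1 and Gbeta5.

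Of 10 genes of FGF and PVR signalling 3 were higher in glia and 4 lower. In the FGF pathway the ligand gene ths (chromosome 2R, 11756817 to 11814424) stood at 8.18, 1.49 and 3.96 CPM in glia and 253, 273 and 272 CPM in neurons, and the receptor gene htl (chromosome 3R, 18045216 to 18052984) at 367, 212 and 339.6 CPM in glia and 0.711, 0.149 and 0.270 CPM in neurons. The adaptor gene stumps, which couples the receptor to Ras, stood at 1667, 1229 and 2196 CPM in glia and 0.527, 3.23 and 2.24 CPM in neurons. The ligand was thus higher in every neuron library and the receptor and adaptor in every glia library (edgeR adjusted p = 9.49e-07 for ths and edgeR adjusted p = 2.84e-06 for htl). A further ligand of htl, pyr, was lower in glia too, at 0.893 ± 0.867 CPM in glia against 9.01 ± 2.98 in neurons, while bnl, the ligand of the tracheal receptor btl, was higher, at 61.5 ± 4.95 CPM in glia against 1.22 ± 0.450 in neurons. The gene btl lay at 0.230 ± 0.336 CPM in glia against 0.278 ± 0.227 in neurons and was not called. The PDGF and VEGF relative Pvf3 stood at 4.25, 5.42 and 3.94 CPM in glia and 484, 605 and 569.6 CPM in neurons, and its receptor Pvr was not called (3.56 ± 0.493 CPM in glia against 9.87 ± 3.33 in neurons).

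Ligands of other receptor kinases had their own pattern. The ligand jeb and its receptor Alk were both lower in glia, jeb at 5.66, 3.37 and 18.4 CPM in glia and 654, 953 and 750.2 CPM in neurons and Alk at 19.1 ± 4.79 CPM in glia against 389.6 ± 22.2 in neurons. In EGF receptor signalling the protease gene rho, which releases the ligands, stood at 3379, 5518 and 4145 CPM in glia and 27.4, 25.2 and 27.8 CPM in neurons. The ligand spi was higher in glia (794 ± 67.9 CPM in glia against 275 ± 25.5 in neurons), as were the pathway's transcription factor pnt (984, 759 and 892 CPM in glia and 0.658, 1.34 and 1.45 CPM in neurons) and its inhibitor sty (1874 ± 124 CPM in glia against 111 ± 13.7 in neurons). The receptor gene Egfr itself lay low, at 6.39 ± 5.69 CPM in glia against 0.287 ± 0.231 in neurons. Its call as higher was lost without glia replicate 2 or 3 or any neuron library (log2 3.82 to 4.99). The inhibitor kek1 was lower in glia (21.2 ± 2.57 CPM in glia against 392 ± 7.22 in neurons). The cytoplasmic kinases Raf, Dsor1 and rl were all lower in glia, at log2 -1.26, -1.37 and -1.36.

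In insulin and TOR signalling 16 of 25 genes were higher in glia and 5 lower. The insulin-binding protein ImpL2 stood at 302, 446 and 421 CPM in glia and 0, 0.467 and 0.123 CPM in neurons. The transcription factor foxo, which insulin holds back, stood at 74.4, 59.6 and 71.95 CPM in glia and 1.55, 1.12 and 0.860 CPM in neurons. The receptor InR (248 ± 13.0 CPM in glia against 73.4 ± 10.5 in neurons) and the kinase Akt (354 ± 27.3 CPM in glia against 65.6 ± 5.98 in neurons) were higher by less, and Rheb was within 2-fold (147 ± 17.3 CPM in glia against 124 ± 21.6 in neurons). The insulin-like peptide gene Ilp7 was lower in glia, with 0.677 CPM in neurons and no count in glia.

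In the Notch pathway 14 of 19 genes were higher in glia and 1 was lower. The receptor gene N stood at 278, 264 and 283 CPM in glia and 3.03, 6.41 and 3.15 CPM in neurons. The glycosyltransferase fng, which sets the ligand preference of the receptor, stood at 318, 246 and 262 CPM in glia and 0.658, 0.382 and 0.713 CPM in neurons. The target gene E(spl)mbeta-HLH stood at 28.3, 34.1 and 25.9 CPM in glia and 0, 0.0849 and 0 CPM in neurons, and the related target gene Hey at 12.2 ± 3.09 CPM in glia against 0.852 ± 0.715 in neurons. The inhibitor numb was the gene called lower, at 6.50, 0.638 and 1.14 CPM in glia and 61.0, 93.9 and 84.1 CPM in neurons, and the transcription factor Su(H) was within 2-fold (28.1 ± 5.74 CPM in glia against 26.3 ± 2.20 in neurons). In BMP and activin signalling the ligand daw was higher in glia (46.9 ± 5.94 CPM in glia against 0.262 ± 0.267 in neurons) and Actbeta lower (5.38 ± 4.90 CPM in glia against 177 ± 19.4 in neurons), and the receptor wit was lower (2.92 ± 2.51 CPM in glia against 108 ± 11.6 in neurons) while the receptors sax (93.5 ± 12.1 CPM in glia against 104.4 ± 5.997 in neurons) and babo (124 ± 33.2 CPM in glia against 110.2 ± 12.5 in neurons) were within 2-fold. The signal carriers Mad, Med and Smox were within 2-fold as well, at log2 0.18, -0.02 and 0.27. Wnt pathway genes were mostly lower in glia, 13 of 21 against 5 higher (median log2 -2.14), among them the ligand Wnt5 (4.92 ± 3.28 CPM in glia against 47.3 ± 2.60 in neurons), the receptor fz2 (16.8 ± 3.06 CPM in glia against 133 ± 11.96 in neurons) and the transcription factor pan (183 ± 43.4 CPM in glia against 1348 ± 246 in neurons).

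Pathways of growth control and defence were mostly higher. In the Hippo pathway 7 of 11 genes were higher and none was called lower (1 without glia replicate 3), with kibra at 494, 336 and 409.7 CPM in glia and 4.21, 8.17 and 5.43 CPM in neurons and the kinase wts at 453 ± 72.6 CPM in glia against 38.7 ± 3.25 in neurons. Of 23 Toll and IMD genes 15 were higher and 5 lower, the latter being 3 without glia replicate 2. The NF-kappaB factors dl (210.2 ± 6.36 CPM in glia against 2.36 ± 0.519 in neurons), Dif (98.3 ± 21.2 CPM in glia against 4.67 ± 1.55 in neurons) and Rel (131 ± 10.8 CPM in glia against 19.4 ± 2.61 in neurons), the adaptor Myd88 (77.8 ± 12.01 CPM in glia against 1.12 ± 0.484 in neurons) and the peptidoglycan receptor PGRP-LC (39.5 ± 13.9 CPM in glia against 0.115 ± 0.177 in neurons) were higher. The receptor Toll-6 was lower, at 4.57, 1.22 and 0.387 CPM in glia and 92.9, 122 and 118 CPM in neurons. The tumour necrosis factor receptor gene wgn stood at 350.1, 286 and 305 CPM in glia and 0.105, 0.594 and 0.344 CPM in neurons and its ligand egr at 17.3 ± 10.9 CPM in glia against 0.0730 ± 0.0874 in neurons, while the kinase bsk that acts below them was lower (69.8 ± 10.5 CPM in glia against 385 ± 42.1 in neurons).

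Second messenger genes were mostly lower in glia. Of 22 G protein and cAMP genes 14 were lower and 4 higher, and of 13 calcium genes 8 were lower and 2 higher. Calmodulin Cam stood at 87.0, 109 and 102 CPM in glia and 3444, 2737 and 3366 CPM in neurons, and the calcineurin subunit CanB at 11.3, 7.49 and 6.13 CPM in glia and 748, 766 and 628 CPM in neurons. The G protein gamma subunit Ggamma30A stood at 91.5, 92.1 and 87.2 CPM in glia and 8055, 7362 and 7749 CPM in neurons. Of the alpha subunits Galphai was higher in glia (275 ± 30.2 CPM in glia against 0.569 ± 0.273 in neurons) and Galphao lower (155 ± 31.5 CPM in glia against 1366 ± 35.5 in neurons). The catalytic subunit of protein kinase A, Pka-C1, was within 2-fold (667 ± 64.4 CPM in glia against 791 ± 15.5 in neurons), as were the calcium store genes Itpr (51.2 ± 11.3 CPM in glia against 50.9 ± 8.04 in neurons) and Stim (122 ± 9.95 CPM in glia against 108 ± 0.742 in neurons).

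Of the 13 clock genes 9 were higher in glia and 2 lower. The gene tim stood at 1474, 1071 and 1468 CPM in glia and 14.1, 25.1 and 19.4 CPM in neurons, per at 773 ± 123 CPM in glia against 26.3 ± 1.02 in neurons, and vri at 385, 395 and 494 CPM in glia and 0.974, 1.68 and 0.172 CPM in neurons. The activator Clk stood at 116 ± 36.5 CPM in glia against 0.0283 ± 0.0490 in neurons, and its partner cyc at 74.6 ± 10.7 CPM in glia against 41.1 ± 10.2 in neurons. The receptor of the clock neuropeptide, Pdfr, was lower in glia (4.89 ± 2.79 CPM in glia against 83.2 ± 3.83 in neurons). Several of these transcripts are known to cycle over the day, and the labels used here give no hour of dissection. Among nuclear receptors, where 6 of 19 were higher and 9 lower, Hnf4, a regulator of fat use, stood at 316, 218 and 232 CPM in glia and 1.61, 2.04 and 0.860 CPM in neurons, while the activity-regulated receptor Hr38 was lower (8.86 ± 2.30 CPM in glia against 278 ± 85.7 in neurons).

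The cell surface and its surroundings differed by some of the largest factors. Of 20 matrix and integrin genes 15 were higher and 3 lower, with a median of log2 4.54. The integrin ligand Tig stood at 1488, 3366 and 1468 CPM in glia and 0.105, 0.573 and 0.197 CPM in neurons. The laminin subunit LanA stood at 880.2, 1095 and 807 CPM in glia and 0.0263, 0.531 and 0.0246 CPM in neurons, and the type IV collagen genes vkg and Col4a1 at 1347 ± 548 CPM in glia against 1.74 ± 1.12 in neurons and at 1370.4 ± 478 CPM in glia against 1.51 ± 0.674 in neurons. Nidogen, Ndg, was lower in glia, at 0.00645 ± 0.0112 CPM in glia against 0.566 ± 0.3205 in neurons, with 1 count in the glia libraries, a call lost without glia replicate 1 (log2 -5.49) or 3 (-5.46). Collagen and laminin are also made by fat body and haemocytes, whose marker sums were given above for fat body and were 0 to 7.22 CPM in glia against 101.97 to 122 in neurons for the 2 tested haemocyte genes, nearly all of it Pxn. The other haemocyte genes of the list, such as NimC1 and eater, did not pass the filter on counts. Tracheal markers summed to 43.8 to 59.7 CPM in glia, nearly all of it the chitin deacetylase serp (50.3 CPM), against 0.263 to 1.252 in neurons, and muscle markers to 17.5 to 41.5 against 3.88 to 8.06. Their part in these results was not tested. Of the gap junction genes, ogre (841 ± 274 CPM in glia against 6.32 ± 3.11 in neurons), Inx2 (1242, 719 and 1101 CPM in glia and 5.98, 2.97 and 6.10 CPM in neurons) and Inx3 (342 ± 43.2 CPM in glia against 6.08 ± 2.27 in neurons) were higher and shakB was lower (4.94, 14.99 and 4.44 CPM in glia and 364, 450.4 and 482 CPM in neurons).

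The largest fitted differences were taken from called genes whose higher group averaged 100 counts or more and whose groups did not overlap. For a gene without a count the fitted value is no measure of size, so the genes named are examples and not a ranking. CG15651, for one, with 2 counts in glia, had a ratio of 6250 (95% counting interval 1730 to 51600) and is not among them. Higher in glia were CG15784 (4916, 8787 and 7229.8 CPM in glia and 0.237, 0.0424 and 0.0246 CPM in neurons), for which no role is given here, CG9377, Ugt35E2, Cyp6d4, CG15083 and CPT2, next to Cyp6a20 and ken. The glucuronosyltransferase Ugt35E2, listed as Ugt86De, had no count in neurons and 64.0 ± 29.0 CPM in glia, at least 2580-fold higher, and the cytochrome P450 gene Cyp6d4 was at least 1800-fold higher. CG9377 had no count in neurons and was at least 4070-fold higher. Lower in glia, all with no count in any glia library, were dpr2, esn, Hs3st-B, CG14459, AstC-R1, CG12402, CR45533 and CG9098. Hs3st-B, a heparan sulfate sulfotransferase, stood at 52.9, 48.4 and 44.6 CPM in neurons and was at least 2200-fold lower in glia. The planar polarity gene esn stood at 45.7, 50.2 and 51.1 CPM and was at least 2230-fold lower, and the allatostatin C receptor gene AstC-R1 was at least 1710-fold lower. In all, 858 tested genes had no count in the glia libraries, and 693 of them were called lower. No count in the neuron libraries was found for 129 genes, of which 95 were called higher.

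**Figure D5:**
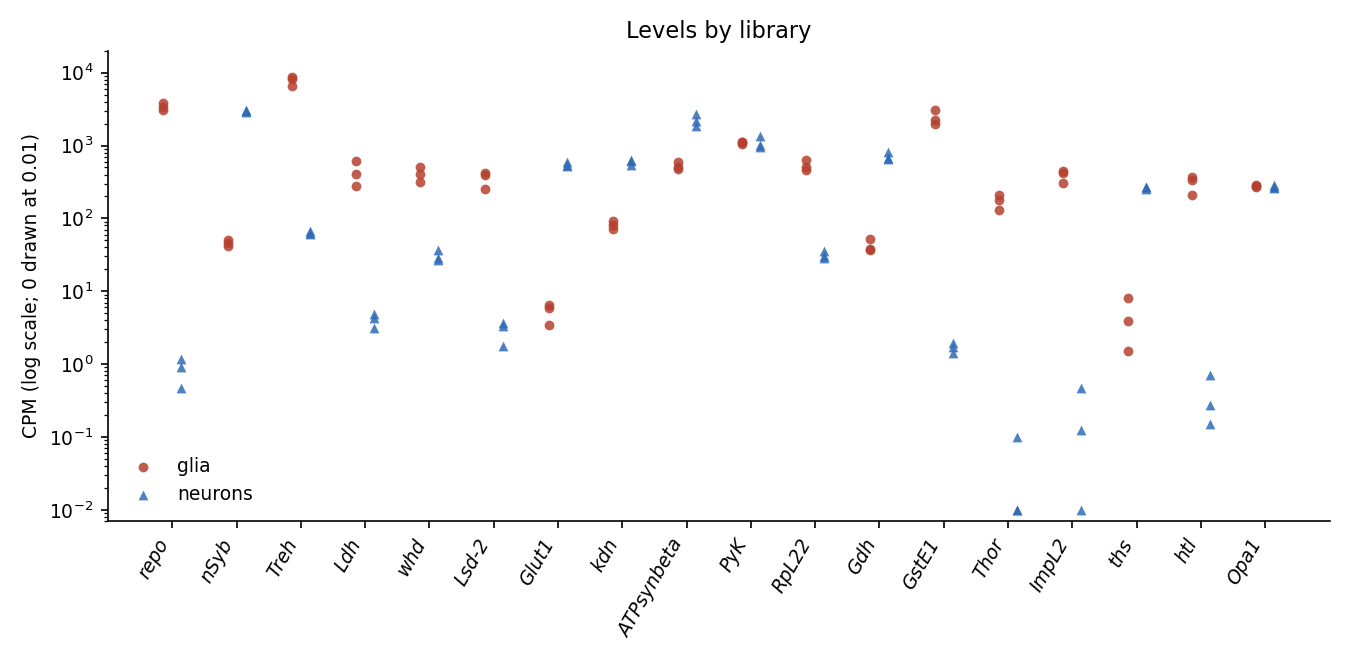
CPM on a log axis for named genes, with 1 point per library, glia and neurons in separate colours; a value of 0 is drawn at 0.01. Genes such as Treh, Ldh and whd show glia points far above neuron points, Glut1 and Gdh the reverse, and PyK and Opa1 show both groups together.

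At the other end stood the abundant genes of like level. Among the 20 genes within 2-fold with the highest mean over the 6 libraries were Ald, Gapdh2, PyK, Fer1HCH, eIF4A and Pka-C1, described above. The RNA-binding protein gene ps (pasilla), a splicing regulator, stood at 1778, 1579 and 1678 CPM in glia and 2161, 1750.2 and 1709 CPM in neurons. The cyclin gene CycG stood at 1568 ± 126 CPM in glia against 1326 ± 32.1 in neurons, called higher by a small amount that was not called without glia replicate 1 (log2 0.21), glia replicate 2 (0.20) or neuron replicate 3 (0.22), and the splicing factor gene Rbfox1 at 761, 733 and 725 CPM in glia and 656, 655 and 639 CPM in neurons. The long noncoding RNA Hsromega (9097 ± 534 CPM in glia against 6608 ± 835 in neurons) was the most abundant of all, called higher and within 2-fold, the latter lost without neuron replicate 2 (log2 0.57). The 10 smallest unadjusted equivalence p-values, all with an adjusted p of 0.000405 in edgeR's fit, fell on genes of several functions. The mitochondrial fusion gene Opa1 stood at 289, 282 and 267 CPM in glia and 264, 273 and 290.2 CPM in neurons, and the corepressor gene gro at 168, 155 and 163 CPM in glia and 173, 159 and 174 CPM in neurons. The 2 groups overlapped in both genes. The kinase subunit AMPKalpha, which answers low cellular energy, stood at 162 ± 6.17 CPM in glia against 149.7 ± 12.3 in neurons. The histone demethylase gene Utx stood at 103.8 ± 6.403 CPM in glia against 103.1 ± 4.68 in neurons, the actin-bundling gene Fim at 279.6 ± 16.4 CPM in glia against 309 ± 19.5 in neurons, and Pcf11, listed as Inr-a, which acts in transcription termination, at 287 ± 24.6 CPM in glia against 316 ± 10.2 in neurons. Over the 10 genes the differences lay between log2 -0.14 for Fim and 0.11 for AMPKalpha. The microRNA effector gw (655 ± 65.8 CPM in glia against 677 ± 64.4 in neurons) and the septate junction gene Nrx-IV (101 ± 3.22 CPM in glia against 109 ± 7.79 in neurons) had the same adjusted p.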

How the data were processed

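RNA sequencing of 12 libraries, 3 per population, was used. The tools named per the submitters' processing notes are STAR 2.5.2, HTSeq 0.6.1 and Trimmomatic 0.32, and the build is BDGP6; their roles, settings, strand and annotation release are not given in the sources used here. The deposited table is called normalized, but its values are whole-number counts per gene name whose totals differ between libraries, so they were analysed as counts. Where reads overlap several genes, or stem from near-identical copies, the counting cannot be checked. Names were matched to Ensembl release 115 (BDGP6.54), 11996 by symbol and 4131 by synonym. The other 145 were ambiguous or had no match, and positions are from that annotation. Columns named for the Elav driver were tied to the group of neurons, not to single titles, so neuron replicate numbers are column numbers.

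Genes with 10 counts or more in 3 or more of the 12 libraries were fitted in edgeR 4.0.16 under R 4.3.3 (TMM, group means of 4 populations, quasi-likelihood F test, two-sided), with Benjamini-Hochberg adjustment over the 10528 genes tested. Standard errors come from the difference and its F value. Likeness was tested by 2 one-sided tests from the same fit, with margins of 1.5-fold and 2-fold. The script was tested on simulated data. For a gene without a count in a population, the bound is a fold against 3 counts over its 3 libraries. Such bounds, and the intervals of ratios, cover counting error only. Exon lengths are the merged exons of a gene. DESeq2 1.42.0 was an alternative, as were median-of-ratios scaling, library totals, no scaling, other filters, a fit of 6 libraries and leaving out each library.

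Named genes are the 4 markers, the 8 largest differences each way, up to 4 members each way and 3 alike per list by p or size of difference, all members of short lists and paralog families, and the most abundant or closest genes within 2-fold. Further list members were chosen after their values were seen. Members and lists were chosen with earlier results of these data known, so their counts are descriptions. T4 and Pm2 neurons are not described here.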

Additional observations from a re-analysis of the deposited data

How the results depend on the processing

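The count of 7236 genes called stayed within 1.5 times under every scaling, filter, fit and tool tried, from 6322 with a filter at 100 counts to 7331 with library totals, and no gene called in both was of opposite sign. Leaving out 1 library gave 6682 to 7189 calls. The median difference of all genes moved with the scaling, from log2 -0.17 to -0.04 with median-of-ratios scaling, -0.06 with none and -0.52 with library totals, where 2674 genes were higher and 4657 lower. Lists near 0, such as the proteasome and autophagy, therefore change the sign of their balance with scaling, as given beside them. The equivalence test gave 0 genes at 1.5-fold and 1465 at 2-fold, and the latter count was 712 when only the 6 libraries were fitted. The cause was not tested. Of 53 named genes within 2-fold, 15 missed the margin in at least 1 setting and 8 on leaving out a library. In the fit of 6 libraries Eaat2, hrm, babo, Atg12, Snap24 and Pfk were among those that missed it. Scaling by library totals also turned the small differences of Cct1, CycG and Gapdh2, called higher, to log2 -0.044, -0.11 and -0.12. Taking off the median of the length class turned the Mediator median from log2 -0.30 to 0.27, the mitochondrially encoded one from -0.07 to 0.43 and the core spliceosome one from -0.10 to 0.58. Members of all lists were called in 1056 cases, 997 to 1077 over the alternatives and 822 with a log2 difference of 1 or more. These counts show only how calls moved with the settings. Given without the number tested, they cannot be set beside the 68.7% called over all genes. The length correction and this last size limit were chosen after seeing the data, and the 2-fold margin, tried as an alternative from the start, was adopted after the result at 1.5-fold. No paired analysis was possible because the titles of the neuron libraries carry numbers that none of the glia libraries share, and their columns are not tied to single titles.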
